A study of Mus musculus with 4 samples.

Results

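The histone marks H3K9ac and H3K27me3 were examined at 6 genes of peroxide, thioredoxin and glutathione defence, namely Prdx1, Txn1, Nfe2l2, Txndc12, Gpx7 and Mgst2. What these genes do in aortic macrophages was not tested. The study's own tables pair these genes with 7 of the 21089 peaks that were deposited as differing between exposures, 5 of the 20943 H3K9ac peaks and 2 of the 146 H3K27me3 peaks. For H3K9ac the tables keep the peaks with the most reads, and only part of their rows was held. All pairings of the 6 genes in those rows were taken, whatever the direction of the peak. The genes were grouped by function with earlier results of these data known.

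The peaks came from ChIP-Seq of macrophages from the aortas of C57BL/6J mice. In the chronic intermittent hypoxia (CIH) group, chamber oxygen alternated between 90 s at 6.1% and 90 s at 21% during the 12 light hours, for 20 weeks. The room air (RA) group was kept in matching cages at 21% oxygen. After digestion of the aortas, cells were captured by magnetic beads against CD11b, a surface integrin that monocytes, neutrophils and other myeloid cells carry as well as macrophages. Each mark was read in 1 CIH library and 1 RA library, with no replicate and no input library. A difference between exposures therefore cannot be told apart from a difference between 2 libraries, and no test was made. The deposited lists give the position and the direction of each peak and no value per library. The study reports counts and sequencing yields elsewhere, with a larger yield for CIH than for RA in both marks. Those values were not used, so depth and fold changes were not analysed here. Of 19 marker genes of macrophages and of other aortic cells, only Mertk, a macrophage receptor for dying cells, was paired with a peak in the rows held, which was 750 bp wide and listed as higher in RA. Of all 21900 protein-coding genes of RefSeq, 3.04% were paired with a peak in those rows. The H3K9ac rows held lie mostly on chromosomes 1, 2, 3, 4 and 19, so markers on other chromosomes could hardly appear. The count therefore says nothing about which cells were captured.

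Hydrogen peroxide is reduced in cells by peroxiredoxins, which take their electrons from thioredoxin, and by glutathione peroxidases, which mostly take theirs from glutathione. NRF2, the product of Nfe2l2, is the transcription factor that switches on many genes of both systems when thiols of its inhibitor KEAP1 are oxidised. H3K9ac marks active promoters and enhancers, and H3K27me3 is laid down by the Polycomb machinery at silenced genes. How the tables paired peaks with genes is not given in the sources used here, and whether a gene's RNA moved with its peak was not analysed here.

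Of the 5 H3K9ac peaks, those of Prdx1 and Txn1 were listed as higher in CIH. The Nfe2l2 peak and both Txndc12 peaks were listed as higher in RA. For comparison, 45.4% of all H3K9ac peaks and 48.9% of the 483 H3K9ac peaks in the rows held were listed as higher in CIH, so 2 of 5 was close to the share of the list. The 2 H3K27me3 peaks also went opposite ways, with that of Gpx7 listed as higher in CIH and that of Mgst2 as higher in RA, where 36.3% of the H3K27me3 list was higher in CIH. Which exposure a peak was higher in was read from the study's tables, and the directions that its text gives for single named peaks of both marks are the same. For H3K27me3 its text counts more enriched regions in CIH than in RA, while its table lists more peaks as higher in RA. The text does not say that its counts are directions of the listed peaks.

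The sequences below show what lay under 6 of the peaks, read on the upper strand of mm9 from the lower coordinate upwards. Each of the 6 contains a gene's promoter, a motif match or the stretch that both marks share. The first Txndc12 peak, which also has a motif match, is not shown. In Prdx1 (chr4:116367705-116367999, the bases given after a masked stretch) capitals mark a CCAAT box at base 303 of the peak, beyond the first 250 bases used for the motif counts. In Txn1 (chr4:57969451-57969750) they mark the bases that are also in the RefSeq promoter of the gene. In Nfe2l2 (chr2:75521051-75521350) they mark 2 overlapping matches to the NF-kB motif, 1 on each strand. In the second Txndc12 peak (chr4:108507000-108507299) they mark a CCAAT box and then a hypoxia-inducible factor (HIF) core, and each n is a masked base. In Gpx7 (chr4:108129951-108130250, the bases under both marks) they mark a run of 15 T. In Mgst2 (chr3:51432851-51433100, the whole peak) they mark a match to the core of an antioxidant response element, the kind of site that NRF2 binds. Binding was not measured at any match. Not every match is in capitals. Txn1 also has NF-kB and CCAAT matches, the second Txndc12 peak an NF-kB match, and Gpx7 and Mgst2 CCAAT matches.
Prdx1, H3K9ac, higher in CIH: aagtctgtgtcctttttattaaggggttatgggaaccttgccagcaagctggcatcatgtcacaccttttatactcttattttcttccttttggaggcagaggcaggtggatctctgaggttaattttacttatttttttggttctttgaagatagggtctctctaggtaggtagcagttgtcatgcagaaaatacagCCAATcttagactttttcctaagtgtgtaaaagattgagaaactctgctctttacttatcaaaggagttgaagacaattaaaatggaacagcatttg
Txn1, H3K9ac, higher in CIH: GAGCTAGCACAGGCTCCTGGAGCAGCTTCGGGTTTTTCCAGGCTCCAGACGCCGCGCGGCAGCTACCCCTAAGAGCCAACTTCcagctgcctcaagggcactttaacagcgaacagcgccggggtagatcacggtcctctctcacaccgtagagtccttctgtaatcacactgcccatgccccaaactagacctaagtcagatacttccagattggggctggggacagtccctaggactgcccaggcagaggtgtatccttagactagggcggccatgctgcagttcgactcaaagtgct
Nfe2l2, H3K9ac, higher in RA: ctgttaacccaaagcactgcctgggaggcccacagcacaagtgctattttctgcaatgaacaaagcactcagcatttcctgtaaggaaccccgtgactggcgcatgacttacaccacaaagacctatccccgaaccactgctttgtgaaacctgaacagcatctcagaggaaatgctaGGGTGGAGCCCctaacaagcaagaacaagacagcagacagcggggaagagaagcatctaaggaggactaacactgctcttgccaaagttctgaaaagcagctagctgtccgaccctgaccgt
Txndc12 second peak, H3K9ac, higher in RA: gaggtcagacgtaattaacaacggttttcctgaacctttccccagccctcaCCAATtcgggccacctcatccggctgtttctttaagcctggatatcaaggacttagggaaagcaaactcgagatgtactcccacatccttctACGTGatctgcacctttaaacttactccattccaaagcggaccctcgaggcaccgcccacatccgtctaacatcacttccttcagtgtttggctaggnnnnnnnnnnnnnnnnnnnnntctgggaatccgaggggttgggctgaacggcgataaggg
Gpx7, H3K27me3 and H3K9ac, both higher in CIH: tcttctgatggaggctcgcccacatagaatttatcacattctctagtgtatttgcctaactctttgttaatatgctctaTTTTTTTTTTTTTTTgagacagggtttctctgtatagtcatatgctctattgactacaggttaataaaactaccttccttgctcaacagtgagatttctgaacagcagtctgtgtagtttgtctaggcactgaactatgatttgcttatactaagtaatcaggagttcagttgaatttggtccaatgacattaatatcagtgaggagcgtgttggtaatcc
Mgst2, H3K27me3, higher in RA: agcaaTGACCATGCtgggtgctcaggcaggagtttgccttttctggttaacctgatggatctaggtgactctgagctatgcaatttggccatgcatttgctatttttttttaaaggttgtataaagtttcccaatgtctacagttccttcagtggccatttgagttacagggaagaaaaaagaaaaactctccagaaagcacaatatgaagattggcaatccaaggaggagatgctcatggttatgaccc

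Txn1 encodes cytosolic thioredoxin, the electron donor of the peroxiredoxins. Its peak (chr4:57969451-57970950 in mm9) was 1500 bp wide and was the widest of the 7. It was wider than 93.2% of the H3K9ac peaks listed as higher in CIH, whose median width was 600 bp. In the rows held, from which the paired peaks come, that median was 1400 bp. The first 83 bases were found, base for base, on the opposite strand of the RefSeq promoter of Txn1 (GRCm38.p6), in the part that lies 168 to 250 bases before the start of the gene. The peak thus began just upstream of the Txn1 start and ran away from the gene. The tables also pair it with Txndc8, a thioredoxin of male germ cells, and the lists do not say to which of the 2 genes it belongs. No other listed peak of either mark lay within 50 kb. The nearest was an H3K9ac peak of 650 bp at a distance of 71100 bp, listed as higher in RA. In the whole list, 24.9% of the H3K9ac peaks had no other H3K9ac peak within 50 kb.

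Prdx1 encodes a cytosolic peroxiredoxin that reduces hydrogen peroxide and is reduced again by thioredoxin. Its peak (chr4:116367601-116368050) was 450 bp wide, and only 26.2% of the H3K9ac peaks higher in CIH were narrower. In the rows held, 1.86% of the H3K9ac peaks were narrower, so it was among the narrowest peaks paired with a gene there. It is shared with Mmachc, which processes vitamin B12. Of the 399 bases given, 75 were masked, and the 324 others held no CpG and shared no run of 30 bases with any RefSeq promoter. Around it lay 2 pairs of touching H3K9ac peaks with opposite directions. On the lower side, a peak of 900 bp higher in CIH, at 42900 bp, touched a peak of 450 bp higher in RA, at 43800 bp. On the upper side, a peak of 250 bp higher in CIH, at 25850 bp, touched a peak of 1050 bp higher in RA, at 24800 bp. The last of these is paired with Tesk2, a protein kinase. Within 50 kb, H3K9ac peaks higher in CIH covered 1600 bp and those higher in RA 1500 bp, the Prdx1 peak included.

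Txndc12 encodes a thioredoxin-fold protein of the endoplasmic reticulum. It was the only 1 of the 6 genes paired with more than 1 peak, and both were higher in RA. The first (chr4:108505301-108506200) was 900 bp wide and the second (chr4:108506901-108508000) 1100 bp, with 700 bp between them. They were wider than 94% and 97.4% of the H3K9ac peaks listed as higher in RA, whose median width was 300 bp. In the rows held, from which the paired peaks come, that median was 850 bp. The second peak held 2 gene starts. Its first 257 bases were found in the RefSeq promoter of Btf3l4, which encodes a relative of a nascent-chain-binding factor and is read downwards, and its bases 133 to 399 in that of Txndc12, which is read upwards, with 21 masked bases not compared. The start of Btf3l4 fell 6 bp inside the lower edge, and the start of Txndc12 lay 376 bp further up, with 717 bp of the peak beyond it. The tables give both genes for the peak. A further 3 H3K9ac peaks lay within 50 kb, all on the upper side. A peak of 350 bp higher in CIH, 11900 bp from the second Txndc12 peak, touched a peak of 800 bp higher in RA at 12250 bp. The third, of 200 bp and also higher in RA, lay at 23900 bp. Together with the Txndc12 peaks, 350 bp were covered by peaks higher in CIH and 3000 bp by peaks higher in RA.

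Nfe2l2, the gene of NRF2, had a peak of 650 bp (chr2:75521051-75521700) that no other gene shared. It was wider than 84.9% of the H3K9ac peaks listed as higher in RA, but narrower than their median of 850 bp in the rows held. The 399 bases given shared no run of 30 bases with a RefSeq promoter, so the place of the peak relative to the start of Nfe2l2 was not established here. Of 3 other H3K9ac peaks within 50 kb, 1 was higher in CIH, with 500 bp at a distance of 19900 bp. It touched a peak of 200 bp higher in RA at 19700 bp, and the remaining peak, of 350 bp and higher in RA, lay at 38500 bp on the other side. Peaks higher in CIH covered 500 bp around Nfe2l2 and peaks higher in RA 1200 bp.

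**Figure D1:**
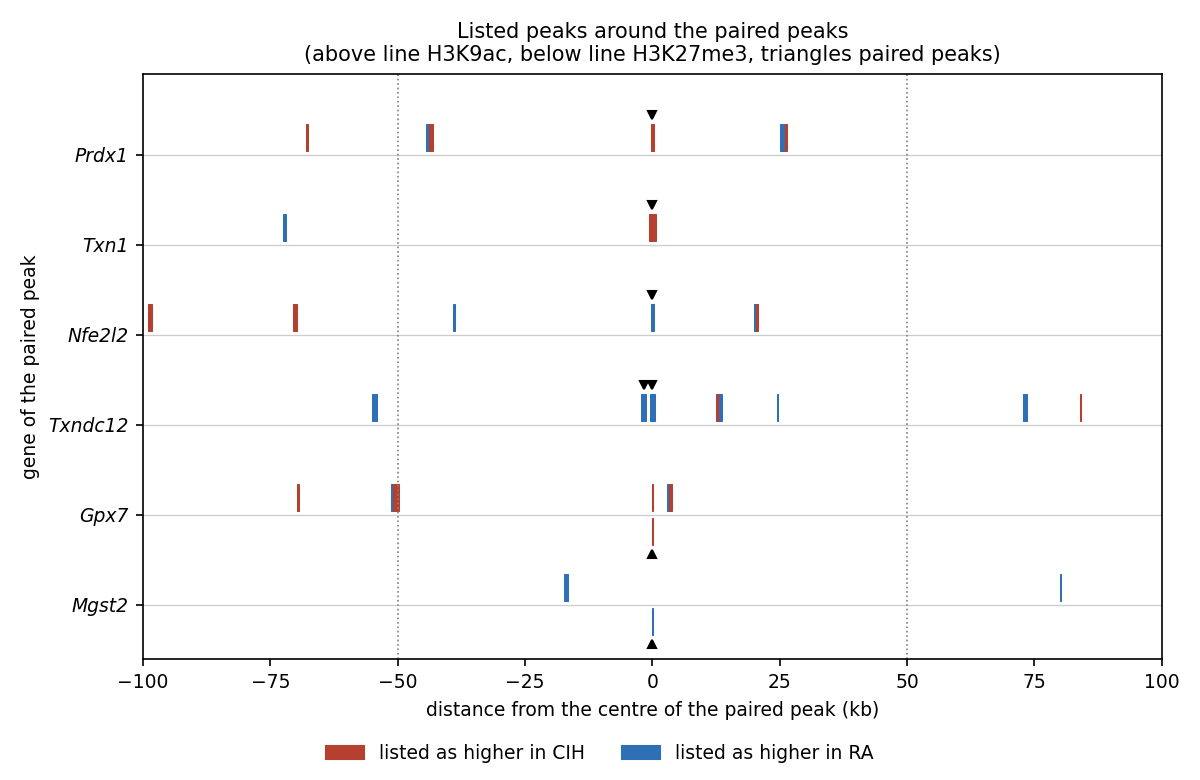
H3K9ac peaks (above each line) and H3K27me3 peaks (below it) around the peaks paired with each gene, by distance from the centre of the paired peak in kb, drawn to scale with a thin outline, red where listed as higher in CIH and blue where higher in RA. The paired peaks carry triangles and the Txndc12 row is centred on its second peak. Dotted lines stand at 50 kb, within which Txn1 had no other peak and Prdx1 had 4.

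Gpx7 encodes a glutathione peroxidase of the endoplasmic reticulum that acts largely as a sensor of peroxide. Its H3K27me3 peak (chr4:108129901-108130250) was 350 bp wide, wider than 73.6% of the H3K27me3 peaks higher in CIH, whose median was 300 bp. An H3K9ac peak of 300 bp, also higher in CIH, lay wholly within it and ended on the same base. In the H3K27me3 list, 22.6% of the 146 peaks overlapped an H3K9ac peak by 1 bp or more. Of the 33 that did, 93.9% had the same direction as the H3K9ac peak, as at Gpx7. H3K9ac and H3K27me3 are usually found at different genes. With no input library, whether total reads over these bases also differed between CIH and RA was not tested. The bases around the T run, 125 to 168 of the peak, were found in runs of at least 20 in 31 RefSeq promoters, none of them of Gpx7 or Zcchc11. The H3K27me3 peak is also paired with Zcchc11, which is named Tut4 in RefSeq and encodes an enzyme that adds uridines to RNA. On the upper side, an H3K9ac peak of 850 bp higher in CIH, at 2850 bp, touched a peak of 200 bp higher in RA at 2650 bp. On the lower side, a peak of 1550 bp higher in CIH lay just within the limit at 49500 bp, and the 200 bp peak that it touched, higher in RA, just outside it at 51050 bp. Peaks higher in CIH thus covered 2700 bp of H3K9ac around Gpx7 and peaks higher in RA 200 bp.

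Mgst2 encodes a microsomal glutathione transferase that conjugates glutathione to leukotriene A and reduces lipid peroxides. Its H3K27me3 peak (chr3:51432851-51433100) was 250 bp wide, and 6.45% of the H3K27me3 peaks higher in RA were narrower. It is shared with 5031434O11Rik, a neighbour on the reference annotation. Unlike the Gpx7 peak, it lay on no H3K9ac peak. The only H3K9ac peak within 50 kb, at 16500 bp, was 650 bp wide and higher in RA, the same direction as the H3K27me3 peak. Across the H3K9ac list, an H3K27me3 peak within 50 kb was found for 0.759% of the peaks, and none of the 5 H3K9ac peaks of the defence genes had one.

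**Figure D2:**
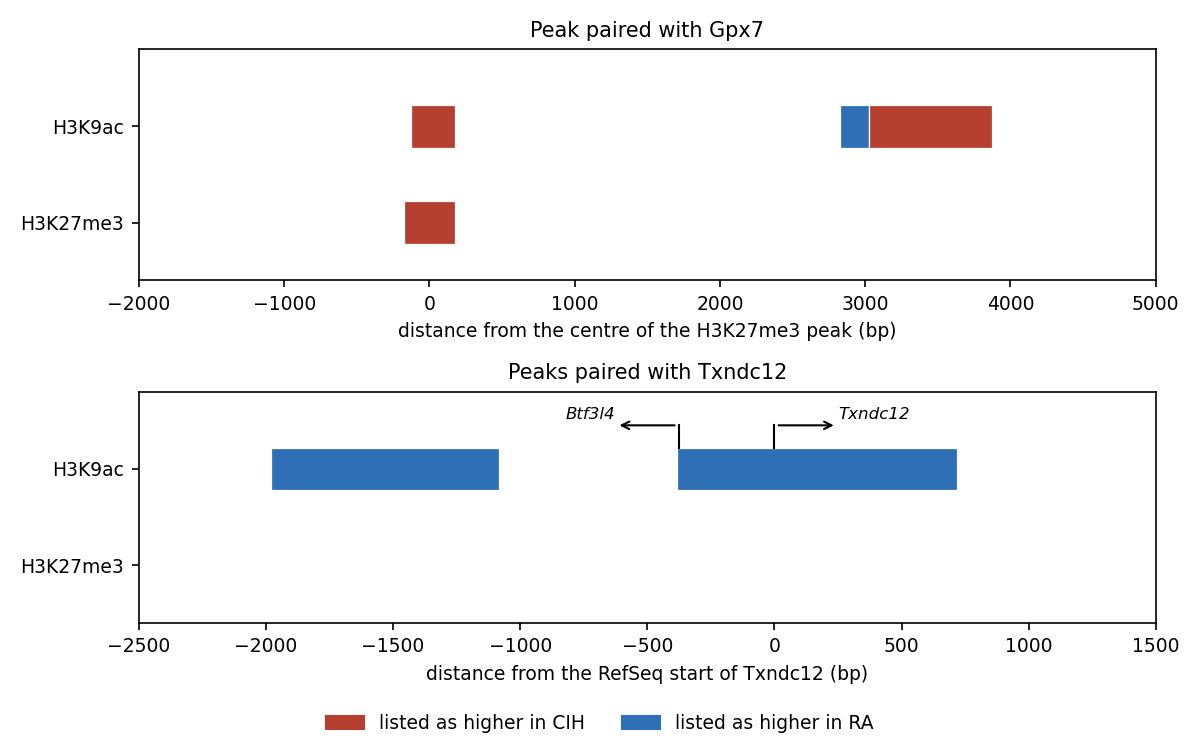
Close views of the peaks paired with Gpx7 (top, distance in bp from the centre of the H3K27me3 peak) and with Txndc12 (bottom, distance in bp from the start of Txndc12 in RefSeq), with H3K9ac above H3K27me3, red where listed as higher in CIH and blue where higher in RA. The 300 bp H3K9ac peak lies within the 350 bp H3K27me3 peak, and the 1100 bp peak holds the starts (arrows) of both Btf3l4 and Txndc12, which are 376 bp apart.

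In all, 15 other H3K9ac peaks and no other H3K27me3 peak lay within 50 kb of the 7 peaks. Of the 15, 7 were listed as higher in CIH and 8 as higher in RA, close to the 45.4% higher in CIH in the whole list. They were 200 to 1550 bp wide. A typical H3K9ac peak had 2 others within 50 kb (median of the list, quartiles 1 and 3), and a typical H3K27me3 peak had 1 H3K9ac peak (median). The H3K27me3 peaks of Gpx7 and Mgst2 had 4 and 1 of the 15. Of the 15 neighbours, 11 touched an H3K9ac peak of the other direction, at 4 of the 6 genes. A touching pair that lies wholly within 50 kb adds equally to both directions, so the near-even split is largely fixed by these pairs. None of the 5 H3K9ac peaks of the defence genes themselves did, where 36.2% of the list did. Summed over the genes, peaks higher in CIH covered 6650 bp of H3K9ac and peaks higher in RA 6550 bp. The same sum for the whole list, where peaks higher in CIH were wider (median 600 against 300 bp), is not given here. Nothing is therefore read from the covered lengths, in total or at single genes.

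Median widths differed between the directions in the list itself, 600 bp for H3K9ac peaks higher in CIH and 300 bp for those higher in RA. The rows held come from tables that keep the peaks with the most reads and show wider peaks, with medians of 1400 bp for CIH and 850 bp for RA. A high rank of a paired H3K9ac peak in the whole list is therefore not particular to its gene. Against those rows with both directions together, the Txn1 peak was wider than 75.6%, the Txndc12 peaks wider than 30.8% and 51.3%, and the Nfe2l2 peak wider than 11.8%. The higher shares given above for these peaks were within 1 direction of the whole list. Against the median of their own direction in the rows held, the Txn1 peak and both Txndc12 peaks were wider and the Nfe2l2 peak was narrower. All peak edges lay on multiples of 50 bp, so widths are known only to that step.

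**Figure D3:**
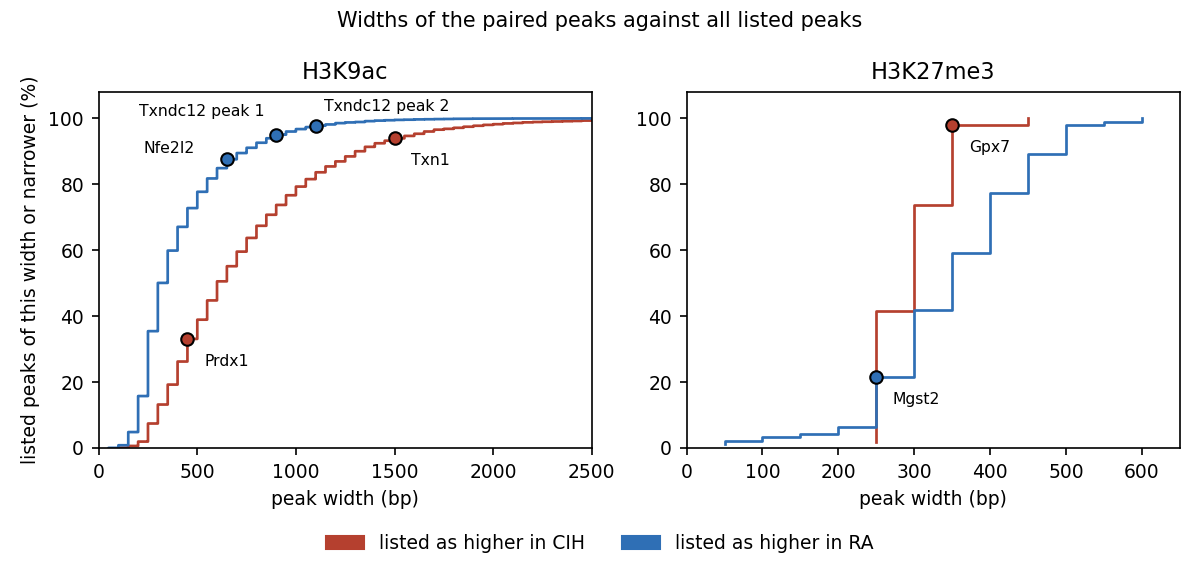
Share of listed peaks (%) of a given width in bp or narrower, for H3K9ac (left) and H3K27me3 (right), red for peaks listed as higher in CIH and blue for peaks higher in RA, with the 7 paired peaks as circles on the curve of their own direction. The Txn1 and Txndc12 peaks sit high on their curves at 900 to 1500 bp, and the Prdx1 peak sits low at 450 bp. The curves cover the whole lists, in which H3K9ac peaks are narrower than in the rows held.

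The 7 peaks differed in base composition. In the first 250 bases, G+C was 58.4% at Txn1 and 40% at Prdx1, both higher in CIH. Among the peaks higher in RA, it was 50.4% at Nfe2l2, 45.6% at the second Txndc12 peak and 35.2% at the first. The median of the 483 H3K9ac peaks in the rows held was 52.4%, and 4.35% of them had less G+C than the first Txndc12 peak. Txn1 had 10 CpG in this window and Prdx1 none, although only 175 of the Prdx1 bases were unmasked. A window without CpG was found in 2.48% of the H3K9ac peaks. The H3K27me3 peaks of Gpx7 and Mgst2 had 37.2% and 42% G+C, against a median of 44.2% over 112 H3K27me3 peaks with at least 250 bases. Mgst2 had no CpG and neither had 22.3% of those peaks.

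**Figure D4:**
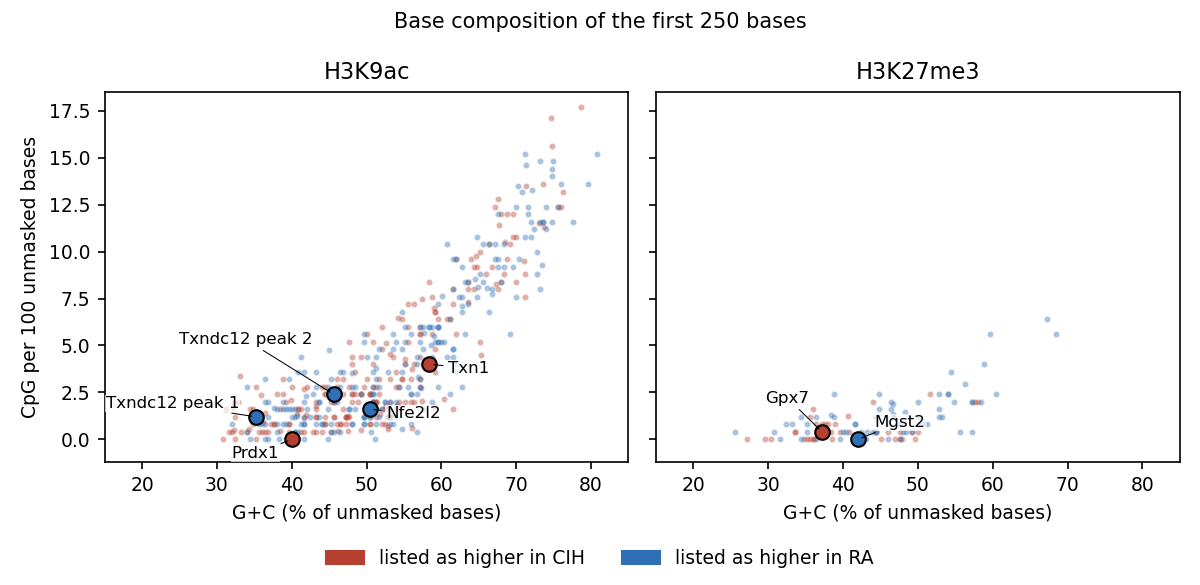
CpG per 100 unmasked bases against G+C (% of unmasked bases) in the first 250 bases of each peak in the tables, for H3K9ac (left) and H3K27me3 (right), red where listed as higher in CIH and blue where higher in RA. Small points are other peaks and circles the 7 paired peaks, of which Txn1 has the most G+C (58.4%) and Prdx1 and Mgst2 have no CpG.

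For each sequence, 5 motifs were searched on both strands of the first 250 bases. The antioxidant response element core TGACNNNGC was present at Mgst2 alone, from base 6 of the peak, and in 8.04% of the H3K27me3 peaks. None of the H3K9ac peaks of Prdx1, Txn1, Nfe2l2 and Txndc12 had it in this window, against 8.49% of the H3K9ac peaks in the rows held. The RefSeq promoters of Prdx1 and Nfe2l2 did hold it, as did 12.4% of all 32851 promoters of 300 bases. Those 2 promoters shared no run of 30 bases with the bases given for the peaks. At Nfe2l2 these were 399 of 650 bp, and at Prdx1 399 of 450 bp with 75 masked. Whether the promoters lie under the rest of the peaks was not tested. The HIF core ACGTG was present in both Txndc12 peaks, at bases 246 and 243, and in 17.4% of the H3K9ac peaks. In the second it lay 136 bp before the start of Txndc12. The NF-kB motif (GGG, any 5 bases, CC) was present at Txn1 and Nfe2l2 and in 40% of the H3K9ac peaks. CCAAT was present at Txn1, the second Txndc12 peak and Mgst2, with 26.5% of the H3K9ac and 25.9% of the H3K27me3 peaks having it. The AP-1 motif TGANTCA was in none of the 7, and in 4.76% of the H3K9ac and 8.93% of the H3K27me3 peaks. Of the promoters themselves, 2 of the 5 H3K9ac peaks held at least 30 bases in the sequence given, Txn1 and the second of Txndc12, where 26.7% of the H3K9ac peaks did. Neither H3K27me3 peak did, where 1.71% of those peaks did.

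Of 64 genes of the peroxiredoxin, thioredoxin, glutathione, superoxide and NRF2 systems, 10 (15.6%) were paired with a peak in the rows held, the 6 above and 4 others. Of all 21900 protein-coding genes of RefSeq, 3.04% were paired with one, but the list was built around the 6 genes with their pairings known, so nothing is read from the difference. Txndc8 shares the Txn1 peak. Txnip, whose product binds and inhibits thioredoxin, had an H3K9ac peak of 2150 bp (chr3:96361601-96363750, shared with Gm15441) that was higher in CIH, like that of Txn1. The Txnip peak was wider than 98.6% of the peaks of that direction in the whole list. In the rows held, from which it comes, their median was 1400 bp. Tmx4, a membrane-bound thioredoxin-like protein of the endoplasmic reticulum, had a peak of 800 bp (chr2:134468651-134469450) higher in RA, which touched a peak of 250 bp higher in CIH. Duox2, an oxidase that makes hydrogen peroxide, had a peak of 900 bp (chr2:122060651-122061550) higher in RA, shared with Sord, the sorbitol dehydrogenase gene. For H3K9ac, 4 of the listed genes stood at 3 peaks higher in CIH (Prdx1, Txn1 with Txndc8, and Txnip), and 4 stood at 5 peaks higher in RA (Nfe2l2, Txndc12, Tmx4 and Duox2). The rows held have 48.9% of their H3K9ac peaks higher in CIH. The other 54 genes were in none of the rows held, and whether a listed peak lies near them was not tested.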

How the data were processed

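Macrophages from the aortas of CIH and RA mice were profiled by ChIP-Seq in 4 libraries, 1 per mark and exposure. The submitters' processing notes name Trimmomatic 0.32, BWA 0.7.12, SAMtools 1.2, Picard 1.121, bedtools 2.23.0, MACS2 2.1.0 and the build mm9. Per mark, 1 list of peaks that differ between exposures was deposited, in which the authors' score is 1000 in every row and the sign gives the direction of their own comparison. The sign was read from the study's tables, whose 600 peaks held here match the lists in name, position and direction (a minus is higher in CIH). For H3K27me3 the study's text counts more enriched regions in CIH, without saying that these are the listed peaks, and the list has more peaks higher in RA. The directions that the text gives for 5 named peaks, 4 of H3K9ac and 1 of H3K27me3, are those of the sign. The table of H3K9ac peaks was held in part (483 peaks, mostly on chromosomes 1, 2, 3, 4 and 19), and that of H3K27me3 peaks holds 117. The tables' counts and p-values were not used.

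Peaks were matched by name, neighbours were sought within 50 kb and at least 1 bp counted as shared, with Python 3.11.15 (figures, matplotlib 3.10.9). Distances run between nearest edges. Table sequences, given to at most 399 bases, were compared with RefSeq promoters (GRCm38.p6, 250 bases before and 50 from the start) by runs of at least 30 identical bases. All 6 genes had a promoter there. Table sequences read upwards in each of the 162 matches on the same chromosome. Interval and motif searches were tested on simulated data. The genes named are the 6, those that share their peaks or are paired with a peak within 50 kb, and the listed pathway genes in the tables. Genes, lists and markers were chosen with earlier results of these data known. Other widths, distances, overlaps, sequence windows and run lengths were tried. No per-sample column was left unmapped.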

Additional observations from a re-analysis of the deposited data

How the results depend on the processing

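No paired analysis was possible because each mark had 1 library per exposure, and no library could be left out. The planned limit on the score was not run, as the score is the same in every row. Of the 31 alternative values computed, 21 stayed within 1.5 times of the reported count or within 1 SD of the reported G+C, and 10 did not. With only peaks of at least 500 bp, 1 peak of the defence genes remained higher in CIH, that of Txn1, in place of 3. The number of H3K9ac peaks around the 7 peaks was 3 within 10 kb, 8 within 20 kb and 25 within 100 kb, of which 2, 4 and 12 were higher in CIH. Allowing promoter runs of 20 bases, an alternative chosen after seeing the data, gave 5 peaks with a match in place of 2, but still 2 with the promoter of a paired gene, Txn1 and the second of Txndc12. CCAAT was found in 5 sequences in place of 3 with the first 350 or all bases given. The HIF core and antioxidant response element counts did not depend on the sequence window.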
